A study of Mus musculus with 3 samples.

Results

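The FGF response genes examined here are 8 genes whose transcription is commonly read as a sign of fibroblast growth factor (FGF) signalling, namely Dusp6, Spred1, Spred2, Spry1, Spry2, Spry4, Etv4 and Etv5. They were taken by name from 22359 protein-coding genes of the GENCODE vM1 annotation of mm9. For each, every RNAP2 or Med12 peak was collected that overlaps the gene or lies within 100 kb of its start. This gave 24 of the 20479 RNAP2 peaks and 10 of the 10634 Med12 peaks. A peak is at the start of a gene when it reaches within 1 kb of the start of one of its protein-coding transcripts. It is distal when it lies farther than 1 kb from the start of every annotated transcript of any gene.

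The peaks come from chromatin of distal forelimbs dissected from mouse embryos at E12.5, dissociated with collagenase and fixed with formaldehyde. The embryos were wild type, and neither the strain nor the number pooled is given in the sources used here. There is 1 library for RNA polymerase II (RNAP2), 1 for Med12, a subunit of the Mediator complex, and 1 input library, which was not analysed here. No value below therefore has a replicate error, and no test between conditions was possible. The sources used here do not say which forms of the polymerase the RNAP2 antibody binds, so the peaks are not read as all polymerase. The text of the series names E11.5, whereas the sample labels give E12.5.

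FGFs made in the apical ectodermal ridge, the thickened rim of ectoderm at the tip of the limb bud, bind receptors on the mesenchyme beneath and keep its cells growing. The receptors act through RAS and a chain of kinases that ends in ERK, and the response includes its own brakes. DUSP6 dephosphorylates ERK, Sprouty proteins dampen receptor signalling upstream of ERK, SPRED proteins hold back RAS with the help of neurofibromin, and ETV4 and ETV5 are ETS transcription factors of the PEA3 family that carry the signal to other genes. RNAP2 marks transcribed genes and some enhancers, and Mediator links factors bound at enhancers to the polymerase at promoters.

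The peak score is 10 times the negative log10 of the p-value given by the peak caller. It rises with the depth of a library, so scores are compared within a list only. An RNAP2 peak lay at the start of 7 of the 8 genes, where 41.8% of all coding genes have one (95% Wilson interval 41.2 to 42.5%, which covers counting error only). Etv4 was the exception. A Med12 peak lay at 3 starts, those of Dusp6, Spred1 and Spred2, where 8.98% of coding genes have one (8.61 to 9.36%). All 3 also had RNAP2, a combination found at 8.33% of coding genes. The other 4 genes with RNAP2 at the start, Spry1, Spry2, Spry4 and Etv5, had no Med12 peak there. Among coding genes with RNAP2 at the start, 19.9% had Med12 as well. The share was higher among coding genes with an RNAP2 score at least as high as that of a given member. It was 25.0% for Dusp6, where only 8 coding genes scored as high, 25.6% for Spry4, 26.5% for Spry1 and up to 46.1% for Spry2. The 8 FGF response genes thus fell into 3 with both proteins at the start, 4 with RNAP2 alone and 1 with neither. No peak in either list scores under 40, so weaker binding would not be seen.

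**Figure D1:**
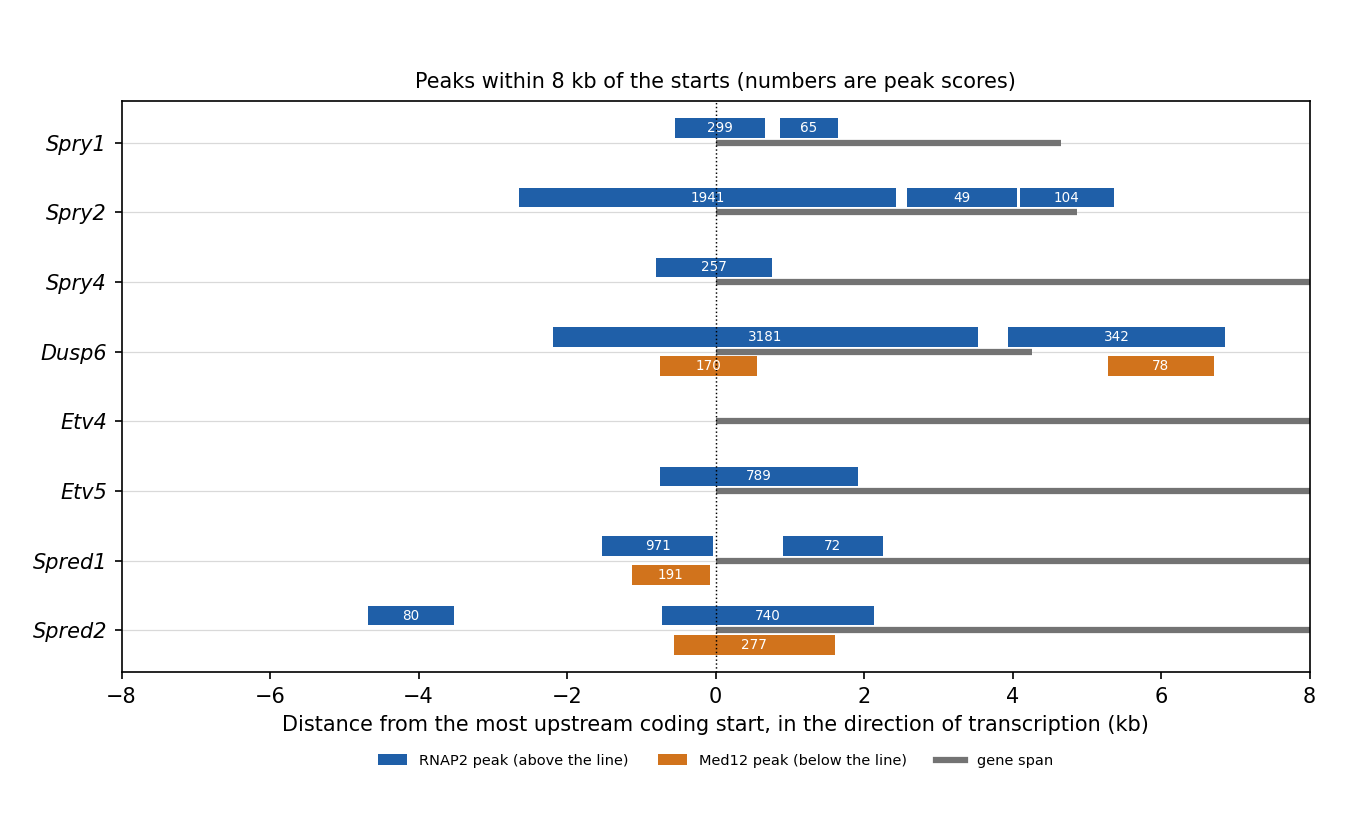
Peaks within 8 kb of the most upstream coding start of each gene, plotted by distance in the direction of transcription (kb), with RNAP2 above and Med12 below each line and the score of each peak printed on it. Med12 peaks lie at the starts of Dusp6, Spred1 and Spred2 and past the end of Dusp6, and Etv4 has no peak in this interval.

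Dusp6, which encodes the ERK phosphatase, had the highest RNAP2 score of the group. The gene takes up 4258 bp of chromosome 10, from 98725865 to 98730122 on the forward strand. Its RNAP2 peak, from 98723670 to 98729398, was 5729 bp wide and scored 3181, which ranked 7 in the whole RNAP2 list. Only 18 RNAP2 peaks scored above 3100, a value that 311 others take exactly, so the order among the highest peaks says little. A score as high was found at 0.0856% and a width as large at 1.08% of the coding starts with an RNAP2 peak. The Med12 peak, from 98725117 to 98726427, scored 170, which ranked 785 of the Med12 list, and lay entirely within the RNAP2 peak. Relative to the start it extended from -748 to 562 bp. Its centre was 762 bp from that of the RNAP2 peak, whereas the median distance was 217.5 bp over the 1862 coding genes with both.

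A further pair of peaks followed directly behind Dusp6. An RNAP2 peak with a score of 342 extended from 98729810, inside the last exon, to 98732732, and a Med12 peak with a score of 77.9 lay from 98731146 to 98732579. The Med12 peak began 1024 bp past the end of the gene and lay entirely under the RNAP2 peak, in intergenic sequence. Together with the peak at the start, RNAP2 peaks covered 90.3% of the gene. As much was covered in 2.81% of the coding genes with RNAP2 at the start. Those genes are of all lengths, and a wide peak covers a larger part of a short gene, so length is not accounted for. Farther out were an RNAP2 peak 35197 bp from the start with a score of 167 and a Med12 peak 96154 bp from the start with a score of 44.1, neither of which overlapped a peak of the other list. The sequences under Med12 at both ends of Dusp6 are given here 5′ to 3′ in mm9, on the forward strand, as the 250 bases before the start (chr10:98725615-98725864) and the middle 300 bases of the downstream Med12 peak (chr10:98731713-98732012). Capitals mark the 1 match among the motifs described further on, CAATAAA at base 47 of the downstream site.
Dusp6 start: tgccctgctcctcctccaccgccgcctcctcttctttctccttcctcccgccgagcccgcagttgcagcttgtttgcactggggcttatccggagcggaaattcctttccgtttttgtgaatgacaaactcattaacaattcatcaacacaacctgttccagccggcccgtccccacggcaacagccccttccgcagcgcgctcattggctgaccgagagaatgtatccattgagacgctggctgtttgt
Dusp6 downstream site: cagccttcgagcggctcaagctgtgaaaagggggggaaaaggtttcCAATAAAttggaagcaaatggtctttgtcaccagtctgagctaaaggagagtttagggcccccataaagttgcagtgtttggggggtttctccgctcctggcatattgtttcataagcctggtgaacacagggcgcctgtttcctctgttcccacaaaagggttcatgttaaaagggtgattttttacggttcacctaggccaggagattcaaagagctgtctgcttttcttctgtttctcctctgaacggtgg

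Both SPRED genes carried Med12 at the start, with higher Med12 scores than Dusp6 but lower RNAP2 scores. Spred2 extends over 99652 bp of chromosome 11, from 19824378 to 19924029. An RNAP2 peak from 19823663 to 19826513 scored 740, and a Med12 peak of 2173 bp, from 19823813 to 19825985, lay within it and scored 277. This was the highest Med12 score among the 8 genes and ranked 314 in its list. Of the 2007 coding starts with Med12, 3.24% had a score and 1.30% a width as high. Of the 2876 coding genes with an RNAP2 score as high as that of Spred2, 33.0% had Med12 at the start. The later start of Spred2-002, 30195 bp into the gene, had no peak of either list within 1 kb.

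Spred1, of 60906 bp on chromosome 2 from 116947110 to 117008015, differed in the place of its peaks. The RNAP2 peak with a score of 971, from 116945588 to 116947079, ended 31 bp before the start, and the Med12 peak with a score of 191, from 116945979 to 116947037, ended 73 bp before it. Both therefore lay upstream of the transcribed sequence, whereas the Spred2 peaks covered its start. Of the 2238 coding genes with an RNAP2 score as high, 36.4% had Med12 at the start. A weaker RNAP2 peak, with a score of 71.6, began 904 bp after the start of Spred1. The 250 bases before each of the 2 starts (mm9, forward strand), shown because Med12 lay over them, in part for Spred1 and in full for Spred2, differ in composition, with 82.0% G and C before Spred1 (chr2:116946860-116947109) and 54.4% before Spred2 (chr11:19824128-19824377). The median over coding genes was 54.4%. They contain no match to the motifs sought, and so no capitals.
Spred1 start: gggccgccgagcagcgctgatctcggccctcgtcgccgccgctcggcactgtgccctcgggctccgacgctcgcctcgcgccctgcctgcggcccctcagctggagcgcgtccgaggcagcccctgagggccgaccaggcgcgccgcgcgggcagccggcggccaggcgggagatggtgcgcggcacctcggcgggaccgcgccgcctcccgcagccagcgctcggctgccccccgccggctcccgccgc
Spred2 start: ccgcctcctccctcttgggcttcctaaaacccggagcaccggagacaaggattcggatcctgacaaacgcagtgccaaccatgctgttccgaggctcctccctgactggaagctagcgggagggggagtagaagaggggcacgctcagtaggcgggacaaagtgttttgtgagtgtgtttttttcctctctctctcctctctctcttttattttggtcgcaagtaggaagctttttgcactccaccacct

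The distal peaks of the SPRED genes were RNAP2 alone. Spred1 had peaks in introns at 45322 and 54388 bp from the start, with scores of 67.4 and 52.0, and an intergenic peak at 96446 bp with a score of 55.4. Spred2 had a peak with a score of 79.8 that ended 3519 bp before the start, and an intronic peak with a score of 165 at 61832 bp. No distal Med12 peak lay in the window of either gene.

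The Sprouty genes all had RNAP2 but not Med12 at their starts, and their RNAP2 scores ranged from 257 to 1941. Spry2, on the reverse strand of chromosome 14 from 106291166 to 106296036, had an RNAP2 peak of 5078 bp with a score of 1941, from 106293604 to 106298681. A score as high was reached at 9.15% of the coding starts with RNAP2. Of the 855 coding genes with such a score 46.1% had Med12 at the start, but the nearest Med12 peak to the start of Spry2 was 94794 bp away and scored 53.2. Behind the main peak, RNAP2 peaks with scores of 49.2 and 104 took up most of the rest of the gene, and together the peaks covered 96.4% of it. Of the coding genes with RNAP2 at the start, which are of all lengths, 2.45% were covered as much. A last RNAP2 peak, with a score of 44.7, lay 96525 bp from the start.

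Spry1, on chromosome 3 from 37538869 to 37543520, had a peak at the start with a score of 299, from 37538327 to 37539537, and a second with a score of 65.5 that began 864 bp after it. The first was below the median score of 384 over the 9349 coding genes with RNAP2 at the start. The gene is about as short as Spry2, with a span of 4652 bp, but RNAP2 peaks covered 31.2% of it and none reached its end. An RNAP2 peak with a score of 617 lay 82763 bp from the start and overlapped a Med12 peak with a score of 44.9. It covers the start of Gm5148, another coding gene, and was not counted as a distal site. The only distal peak in the window was one of Med12, 76991 bp from the start in an intron of Gm5148, with a score of 45.1.

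Spry4, on the reverse strand of chromosome 18 from 38745922 to 38760922, had the lowest RNAP2 score among the 7 starts with a peak, 257. The peak, from 38760166 to 38761721, also covers the starts of Arhgap26 and 9630014M24Rik, which are transcribed in the opposite direction from 266 bp away, so RNAP2 of these genes cannot be told apart. A site behind the gene carried both proteins. It had an RNAP2 peak with a score of 313, higher than at the start, from 38743165 to 38744668, and a Med12 peak with a score of 62.6, from 38743408 to 38744372. The RNAP2 peak began 1254 bp past the end of the gene and the Med12 peak 1550 bp past it. An RNAP2 peak with a score of 43.2 lay in an intron, 8453 bp from the start.

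Of the ETS factor genes, Etv5 had RNAP2 at the start and Etv4 had neither protein. Etv5, on the reverse strand of chromosome 16 from 22381382 to 22439792, had an RNAP2 peak of 2661 bp with a score of 789 at its start, from 22437875 to 22440535. A width as large was found at 8.69% of the coding starts with RNAP2. The coding start of Etv5-002, 3205 bp into the gene, had no peak within 1 kb. The nearest Med12 peak, with a score of 43.8, lay in an intron 10321 bp from the start, and the only distal RNAP2 peak was 97650 bp away with a score of 138. Of the 2709 coding genes with an RNAP2 score as high at the start, 33.7% had Med12 there.

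Etv4, on the reverse strand of chromosome 11 from 101631056 to 101646685, had no peak of either list in the gene or within 1 kb of any of its annotated starts. The 1 peak in its window, with an RNAP2 score of 370, lies at 51818 bp and covers the start of Dhx8, which encodes an RNA helicase. The nearest Med12 peak was 108766 bp away, outside the window, and scored 132.

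**Figure D2:**
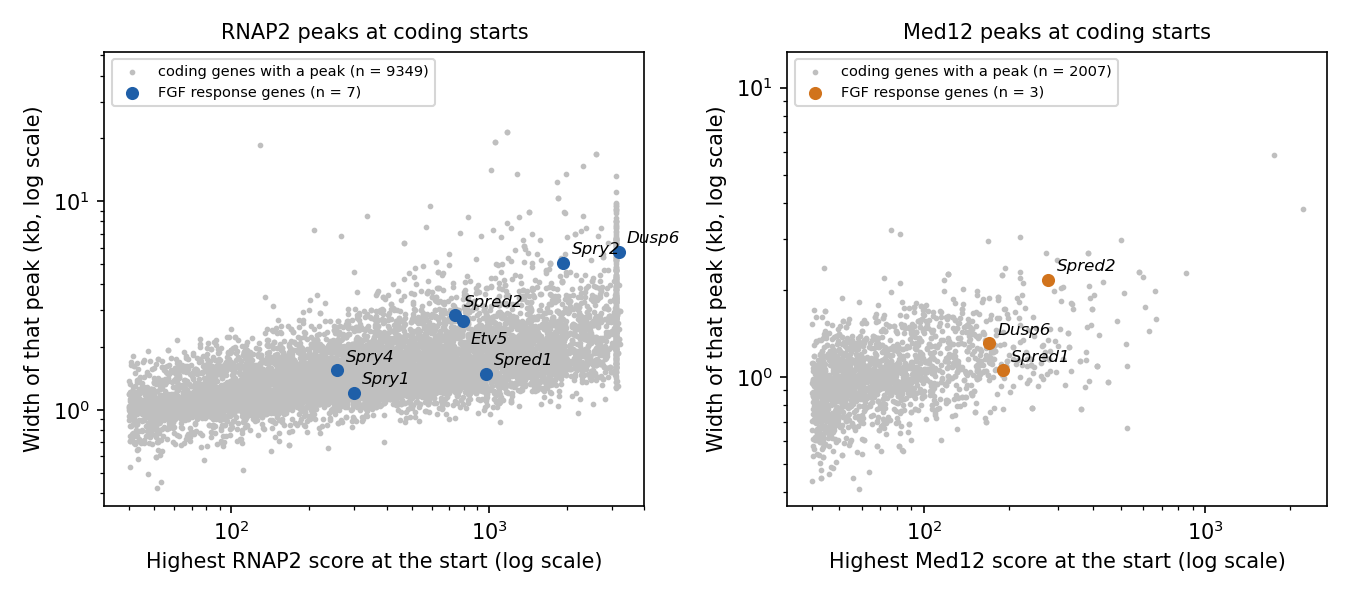
Score and width, both on log scales, of the highest-scoring RNAP2 (left) and Med12 (right) peak at the start of each coding gene with such a peak (grey) and of the FGF response genes (coloured). The RNAP2 peaks of Dusp6 and Spry2 lie high in both measures, those of Spry1 and Spry4 within the bulk, and the vertical band at the right of the RNAP2 plot is the score of 3100 shared by 311 peaks.

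Over the 7 genes with RNAP2 at the start, the score ranged from 257 to 3181 with a median of 789, and the width from 1211 to 5729 bp with a median of 2661 bp. The medians over the 9349 coding genes with such a peak were 384 and 1491 bp. For Med12 the 3 scores ranged from 170 to 277, where the median over 2007 coding genes was 66.9 and the 90th percentile 159. These values describe the genes that had a peak and leave out those that did not. The order of the RNAP2 scores, from Dusp6 and Spry2 through Spred1, Etv5, Spred2 and Spry1 to Spry4, was not that of the Med12 scores, which fell from Spred2 through Spred1 to Dusp6. Without replicates it cannot be said which neighbours in these orders differ.

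RNAP2 reached within 1 kb of the 3′ end of 2 of the 8 genes, Dusp6 and Spry2, as it did in 7.54% of coding genes. Both are short, and a wide peak at the start of a short gene lies closer to its end. Of the 3 members under 6 kb, 2 had such a peak, beside 37.1% of the 1474 coding genes of that length with RNAP2 at the start, a comparison added after the values had been seen.

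**Figure D3:**
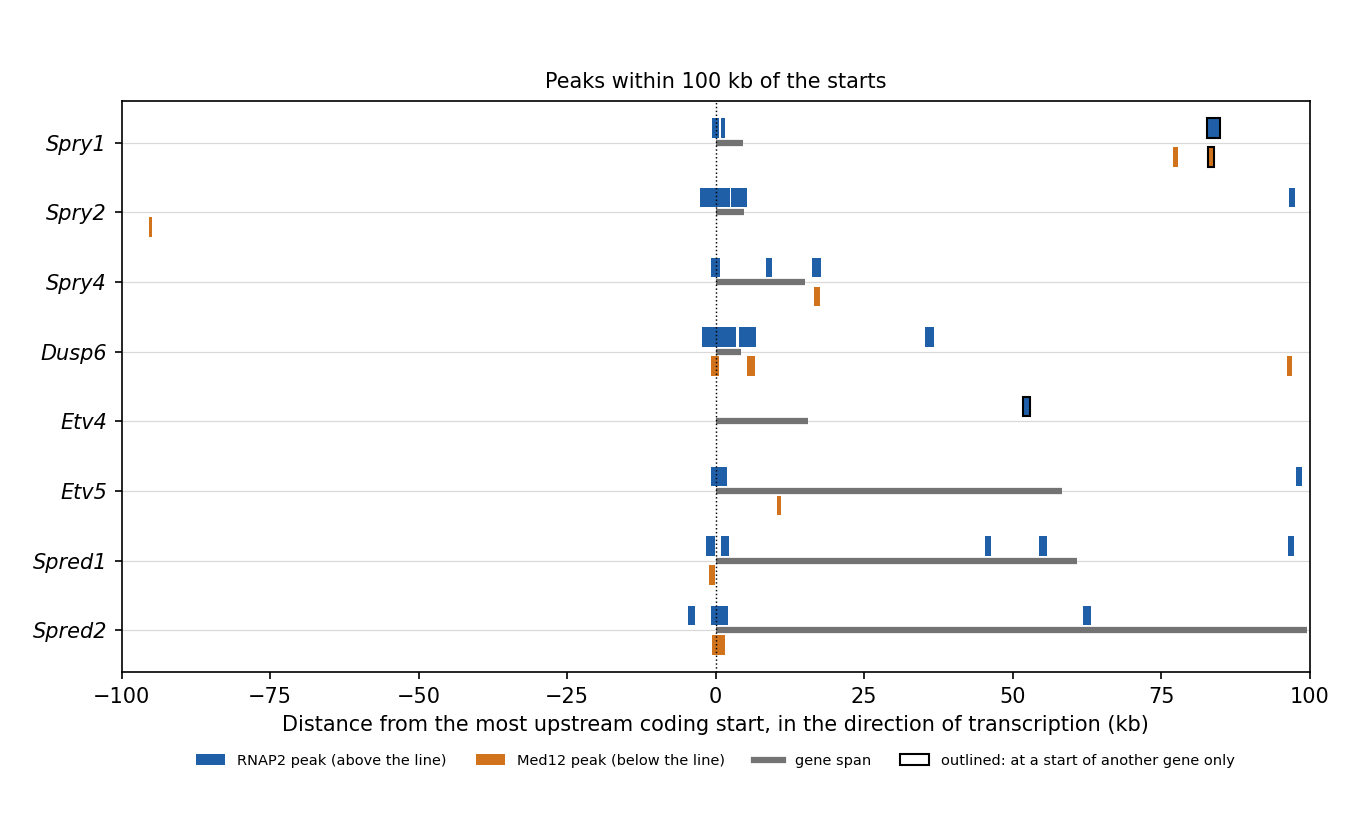
Peaks within 100 kb of the most upstream coding start, by distance in the direction of transcription (kb), drawn to scale with RNAP2 above and Med12 below each line; outlined peaks lie at the start of another gene only. Overlapping distal peaks of both lists are found only behind Spry4 and Dusp6.

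Of the 24 RNAP2 peaks, 13 were distal, 9 at the genes' own starts, and the rest those at Gm5148 and Dhx8. The 13 include the peaks over the body and 3′ end of Spry2 and the one that begins in the last exon of Dusp6. These follow the peak at the start closely and are distal by the 1 kb rule. Of the 10 Med12 peaks, 6 were distal, 3 at the genes' own starts, and the last that at Gm5148. At least 1 distal RNAP2 peak was found for 6 of the 8 genes, beside 40.7% of coding genes in windows made in the same way, and at least 1 distal Med12 peak for 5, beside 34.9%. Each gene had up to 3 such RNAP2 peaks, with a mean of 1.63 beside 0.965 over all coding genes, and up to 2 such Med12 peaks, with a mean of 0.75 beside 0.555. Their scores were close to those of distal peaks elsewhere, with a median of 79.8 for RNAP2 beside 76.2 over all 10692 distal RNAP2 peaks, and of 49.2 for Med12 beside 55.2 over all 8567. The score was under 100 for 7 of the 13 RNAP2 peaks, beside 63.0% of all. Of the 6 Med12 peaks, 3 scored under 50, which stands for a p-value of 1e-05, beside 38.1% of all.

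A distal site with both proteins was found for 2 of the 8 genes, Spry4 and Dusp6, beside 12.8% of coding genes. Both sites lie directly behind the gene, within 5 kb of its 3′ end, though the RNAP2 peak at Dusp6 begins inside the last exon. A site that reaches into these 5 kb is found for 0.496% of coding genes. This distance was chosen after the positions had been seen, and windows of neighbouring genes share peaks. In neither case was another coding start closer to the site. The Med12 scores of both sites were under 100, and whether they act on these genes was not tested.

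Sequence motifs were sought on both strands in the 250 bases before the start of each gene and in the middle 300 bases of each distal peak. They were the ETS motifs CCGGAAG and CAGGAAG, the AP-1 motif TGANTCA, the cyclic AMP response element TGACGTCA, the TCF/LEF motif CTTTGAT, and CAATAAA and TCGTAAA, which posterior HOX proteins bind. Of the 8 starts, 1 held a match, an AP-1 motif before Etv5, which 5.89% of the 22359 coding starts hold; 29.4% of coding starts hold at least 1 of the 7 motifs. The ETS motifs, found before 8.33% and 9.67% of coding starts, were absent from all 8 windows. Of the distal peaks, 6 of 13 RNAP2 and 2 of 6 Med12 peaks held at least 1 motif, beside 32.9% and 33.6% of all distal peaks of these lists, so no excess is read from the counts. Both Med12 peaks are those behind a gene. The one behind Dusp6 held CAATAAA, which is found in 12.8% of the 8567 distal Med12 peaks, and the one behind Spry4 held CAATAAA and CAGGAAG, the latter found in 8.70%. ETS motifs lay in RNAP2 peaks of 3 genes, CCGGAAG before Spred2 and CAGGAAG in an intron of Spred1, in the intronic peak of Spry4 and behind Spry4. They are found in 1.72% and 10.3% of all distal RNAP2 peaks. CAATAAA lay in 3 RNAP2 peaks, over the 3′ end of Spry2, behind Spry4 and 97650 bp from the start of Etv5, beside 11.2% of all, and the TCF/LEF motif in the intronic peak of Spry4, beside 5.09%. A match is a run of letters and not a bound site, and its absence concerns these windows only.

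Other genes of the pathway were looked up in the same way. Among 12 further feedback and response genes, of which Spry3 was not analysed here, RNAP2 lay at 9 of 11 starts and Med12 at 5. The 5 with both were the ERK phosphatase gene Dusp4 (RNAP2 score 1144, Med12 score 54.3), the ETS factor gene Etv1 (470 and 61.7), Il17rd, which encodes a receptor-like inhibitor of FGF signalling (494 and 58.3), and the immediate early genes Egr1 (3100 and 264) and Fos (3100 and 57.4). The Med12 score at the start of Spred2, 277, was above all 5 of these, and those of Dusp6 and Spred1 were above all but that of Egr1. As in the 8 genes, a high RNAP2 score was also found without Med12, as at Dusp5 (2456), another phosphatase gene, and Flrt3 (1437). A distal site with both proteins lay near 5 of the 11, beside 12.8% of coding genes.

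Of 24 genes for receptors and signal transducers, 20 had RNAP2 and 5 had Med12 at the start. Both were found at 4 of them, among these Fgfr2, Shc1 and Nf1, and Med12 without RNAP2 at Grb2. The Med12 scores were 54.9 at Fgfr2, 42.7 at Shc1 and 47.4 at Grb2. Nf1 encodes neurofibromin, the partner of the SPRED proteins, and had scores of 295 for RNAP2 and 47.6 for Med12. Among 5 limb FGF ligands, RNAP2 lay at the starts of Fgf9 and Fgf10 with scores of 95.2 and 100.0, and Med12 at that of Fgf9 with a score of 97.5. Fgf4, Fgf8 and Fgf17 had no peak at the start. A distal site with both proteins lay near 7 of the 24 receptor and transducer genes and 0 of the 5 ligands.

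**Figure D4:**
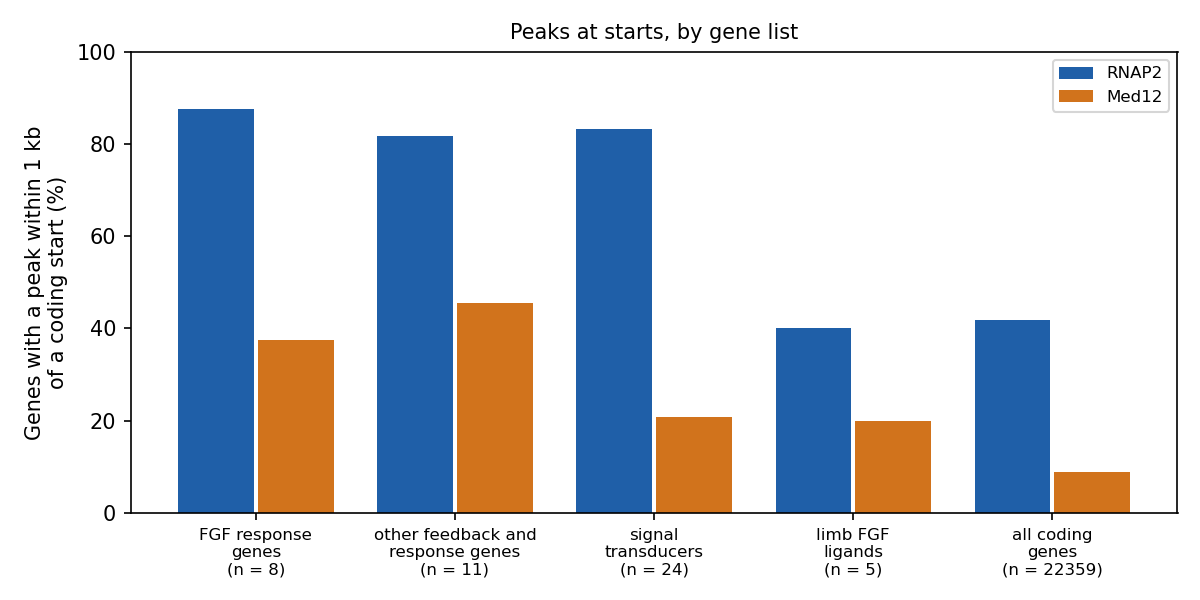
Percentage of genes with an RNAP2 (blue) or Med12 (orange) peak within 1 kb of a coding start, for the 8 FGF response genes, 3 lists of other FGF pathway genes and all 22359 coding genes. RNAP2 lay at 7 of 8, 9 of 11, 20 of 24 and 2 of 5 starts in the lists and at 41.8% of all coding genes, and Med12 at 3, 5, 5 and 1 and at 8.98%.

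The tissue was checked against marker genes. RNAP2 lay at the start of 7 of 7 genes of the distal limb mesenchyme, with scores from 1144 to 3100, at 0 of 6 genes of the limb ectoderm and ridge, at 0 of 4 blood genes and at 0 of 5 genes of tissues outside the limb. Peaks of lower score were found at 1 of 4 endothelial genes (Kdr, 148), 2 of 4 muscle genes (Pax3, 283, and Pax7, 62.9) and 1 of 2 hindlimb genes (Pitx1, 99.4). Fgf8, made in the ridge, is among the genes without a peak at the start. Med12 lay at the start of 1 of the 7 mesenchyme genes, Prrx1, with a score of 220. It lay at no start in the other marker lists, beside 8.98% of all coding genes. The marker check thus concerns the RNAP2 list. In dissected tissue, binding in few cells and weak binding in many cannot be told apart, so these values do not show in which cells the FGF response genes carried RNAP2.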

How the data were processed

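ChIP-seq gave 1 library each for RNAP2 and Med12, and an input library, which was not used here. Per the methods and the labels, the authors cut 1 base from each read, aligned to mm9 with Bowtie and removed redundant reads before MACS 1.4.1 was used to find peaks; whether the input served as control is not given in the sources used here. The deposited score was taken, as MACS writes it, as 10 times the negative log10 of the peak's p-value. The lists reach a score of 40, or a p-value of 0.0001, weaker than the stated threshold of 1e-05. They hold no counts, so the depth behind a peak is unknown.

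Peaks were overlapped (at least 1 bp) with GENCODE vM1 genes on NCBIM37, which is mm9; 0 peaks ended past a chromosome. Python 3.11.15, numpy 2.4.6, scipy 1.17.1 and matplotlib 3.10.9 were used, and the overlap functions were tested on simulated data. No test was made, since there are no replicates. Members and lists were chosen with earlier results of these data known. Named are the 8 members, the highest-scoring and the shared distal peaks of each, and listed pathway genes with both proteins at the start; Dusp5, Flrt3, Grb2, the markers and the ligands were named after their values were seen. Hras and Spi1 were matched by older symbols. Alternatives concerned the score minimum, the start interval, the starts used, the window and the overlap.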

Additional observations from a re-analysis of the deposited data

How the results depend on the processing

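No paired analysis was possible because the peaks of either protein rest on 1 library, and no value below has a test. Under 12 alternatives 56 values were recomputed, of which 37 stayed within 1.5 times the reported count or within the 95% interval of the reported share, and 19 moved. The numbers of members with RNAP2, Med12 or both at the start, 7, 3 and 3, were the same under the 6 alternatives run for them. With a score of at least 50, distal Med12 peaks fell to 3, and the shares of coding genes with RNAP2 and Med12 at the start were 40.4% and 6.67%. With a score of at least 100 there were 6 distal RNAP2 peaks, 0 distal Med12 peaks and 0 sites with both, and the shares were 35.3% and 2.22%, since fewer peaks remain. A start interval of 5 kb left 1 distal site with both, that behind Spry4, with shares of 44.7% and 11.9%, and an interval of 500 bp gave a Med12 share of 8.35%. With the 5′ end of the gene record alone the shares were 40.0% and 8.20%, and all transcripts of a gene a Med12 share of 9.37%. A window of 50 kb held 3 distal Med12 peaks. A window of 200 kb held 22 distal RNAP2 peaks, 17 distal Med12 peaks and 7 sites with both. Of these sites, Dusp6 and Spred1 had 2 each, Spry1, Spry4 and Spred2 1 each, and Spry2, Etv4 and Etv5 0. A wider window takes in more peaks near any gene. No share over all coding genes was computed for the 50 and 200 kb windows, so these counts are not read as a trait of the members.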
